A study of Mus musculus with 12 samples.

Results

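The circadian clock genes described here are Arntl, Clock, Per1, Per2, Per3, Cry1, Cry2, Nr1d1, Nr1d2 and Dbp, chosen by symbol from the deposited count table. All 10 were found among its 24421 entries and all 10 passed the filter on low counts, as did 13937 genes in all. Messenger RNA of the tibialis anterior, a fast hindlimb muscle, had been sequenced in 12 male mice aged 4 months. The groups were 6 C57Bl/6 mice (WT) and 6 mice of the strain mdx/mTR. The mdx allele disrupts Dmd, the dystrophin gene, and mTR denotes the telomerase RNA gene, listed as Terc. The labels give neither the telomerase generation nor whether the groups were littermates, and the time of day of collection, the light cycle and feeding are not given in the sources used here.

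The clock is a loop of transcription that runs in nearly every cell, muscle fibres included, with a period of about a day. ARNTL (also called BMAL1) and CLOCK bind E-box sequences and switch on the Per, Cry, Nr1d and Dbp genes, and the PER and CRY proteins then inhibit them. NR1D1 and NR1D2 (REV-ERB alpha and beta) repress Arntl, while the ROR receptors activate it, and DBP, TEF and HLF activate genes through D-box sequences. Because these mRNAs rise and fall over the day, a level in a single sample depends on when it was taken. A shift of the clock's timing and a change of its level therefore cannot be told apart in mice each sampled once, at a time that is not given.

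Promoter sequences show which of these elements lie close to the start of each gene. The 250 bases before the RefSeq starts of GRCm38.p6 were searched on both strands for the E-box CACGTG, the E-box-like CACGTT, the D-box TTATGTAA or TTACGTAA, and AGGTCA, the half-site of NR1D and ROR receptors. Of the 10 clock genes, 9 matched the promoter table and Per2 did not. The D-box was found in Per3 alone among the 9, at 2 places, against 0.931% of the 32851 windows of all genes. The E-box was found in Per1 and Cry1 (6.02% of all windows), and CACGTT in Cry1, Cry2 and Nr1d1 (3.85%). AGGTCA was found in Per1, Nr1d2 and 1 of 3 starts of Clock (14.0%). Per1 has 2 starts in the table, both downstream of the first base of the gene, and its motifs lie before 1 of them, the window printed. No match in a window says only that these letters are not in it.

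The windows printed are those of Per3 and Cry2, whose mRNA was lower in mdx/mTR, of Cry1 and Per1, whose difference did not pass the test, and of Ciart, a repressor of the loop that holds 3 E-boxes and was lower as well. Capitals mark the matched motifs, which read AACGTG for CACGTT and TGACCT for AGGTCA where the match is on the opposite strand. Exons annotated in GENCODE M21 cover 10 bases of the Cry1 window, 3 of the Ciart window and 1 of the Per1 window.
Per3 (chr4:151044666-151044915, minus strand): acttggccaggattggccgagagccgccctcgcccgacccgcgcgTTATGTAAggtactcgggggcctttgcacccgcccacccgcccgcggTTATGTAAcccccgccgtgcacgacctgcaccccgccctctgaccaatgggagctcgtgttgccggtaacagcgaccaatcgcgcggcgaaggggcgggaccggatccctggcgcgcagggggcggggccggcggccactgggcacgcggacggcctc
Cry2 (chr2:92434070-92434319, minus strand): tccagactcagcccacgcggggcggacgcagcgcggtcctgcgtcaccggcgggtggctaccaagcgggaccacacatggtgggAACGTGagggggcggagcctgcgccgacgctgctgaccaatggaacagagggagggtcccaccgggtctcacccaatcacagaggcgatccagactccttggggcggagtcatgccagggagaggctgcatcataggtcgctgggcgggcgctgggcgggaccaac
Cry1 (chr10:85185055-85185304, minus strand): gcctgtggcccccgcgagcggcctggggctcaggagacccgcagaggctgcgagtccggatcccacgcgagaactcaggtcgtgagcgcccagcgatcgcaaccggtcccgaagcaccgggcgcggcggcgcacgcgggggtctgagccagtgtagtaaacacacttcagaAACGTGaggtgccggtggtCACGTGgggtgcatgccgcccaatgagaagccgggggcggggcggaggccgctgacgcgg
Per1 (chr11:69098699-69098948, plus strand): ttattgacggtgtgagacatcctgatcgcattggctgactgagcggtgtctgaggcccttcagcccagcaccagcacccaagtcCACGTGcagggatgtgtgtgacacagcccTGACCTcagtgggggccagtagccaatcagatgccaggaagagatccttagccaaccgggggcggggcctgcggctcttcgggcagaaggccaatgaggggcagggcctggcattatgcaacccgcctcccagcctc
Ciart (chr3:95882229-95882478, minus strand): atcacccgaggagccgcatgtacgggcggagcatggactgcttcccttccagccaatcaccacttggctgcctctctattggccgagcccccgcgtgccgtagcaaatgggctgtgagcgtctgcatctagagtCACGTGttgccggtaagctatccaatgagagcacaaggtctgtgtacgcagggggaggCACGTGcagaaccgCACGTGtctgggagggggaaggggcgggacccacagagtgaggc

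In Per3 the D-boxes begin 205 and 158 bases before the start. The E-box of Cry1 begins 60 bases before its start and its E-box-like element 79 bases before. Cry2 has its E-box-like element at 166 bases, and Per1 its E-box at 166 bases. In Ciart the E-boxes begin 116, 58 and 44 bases before the start. Ciart belongs to the 18 other clock genes described below, of which 13 matched the promoter table. The E-box was found in 3 of these 13, Bhlhe41, Ciart and Tef. The window of Dbp, whose mRNA was also lower, held 0 matches, but annotated exons of Dbp cover 159 of its 250 bases. Whether the motifs go with the changes in mRNA was not tested.

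Library totals ran from 36903560 to 40981012 counts in WT, and in mdx/mTR they lay between 35136327 and 60330410. Dmd, the gene that the mdx allele disrupts, was at 228 to 244 CPM in WT and at 35.2 to 56.4 CPM in mdx/mTR. CPM are counts scaled to the size of the library by the trimmed mean of M-values (TMM). Terc had 2 counts in all and checks nothing. The 8 markers of muscle fibres summed to 189720 to 212718 CPM in WT and 143970 to 194959 CPM in mdx/mTR, with 1 of the 8 called lower and 0 higher. Of 7 macrophage markers 7 were higher in mdx/mTR, with sums of 72.8 to 128 CPM in WT and 220.0 to 634 CPM in mdx/mTR. The 5 fibroblast markers were all higher too, with sums of 840.4 to 1558 CPM and 2159.8 to 4358 CPM. Of 4 endothelial markers 2 were lower and 0 higher. With 3 markers each, Schwann cells had 2 lower and 0 higher, while satellite cells and smooth muscle each had 1 higher and 1 lower. The 3 adipocyte markers had 0 called. Over all genes tested 23.4% were lower and 25.0% higher. The 3 haemoglobin genes listed for red blood cells (Hbb-bs, Hbb-bt and Hba-a1) had 0 counts in every library. How they were handled in counting is not given in the sources used here, so these counts do not show that blood was absent.

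Between the groups, 5 of the 10 clock genes passed an adjusted p of 0.05 in edgeR, all of them lower in mdx/mTR: Dbp, Per2, Cry2, Per3 and Nr1d2. The other 5, among them the activators Arntl and Clock, did not pass. Over all 13937 genes, 48.3% passed in either direction and 23.4% were lower, so the share of clock genes that passed was close to the background, while the 5 lower and 0 higher stand beside 25.0% of all genes higher. The median log2 fold change of the 10 was -0.35, against 0.01 over all genes tested. In bulk muscle, fewer cells of a type and less RNA per cell cannot be told apart, and the part of the added macrophage and fibroblast RNA in these differences was not tested.

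**Figure D1:**
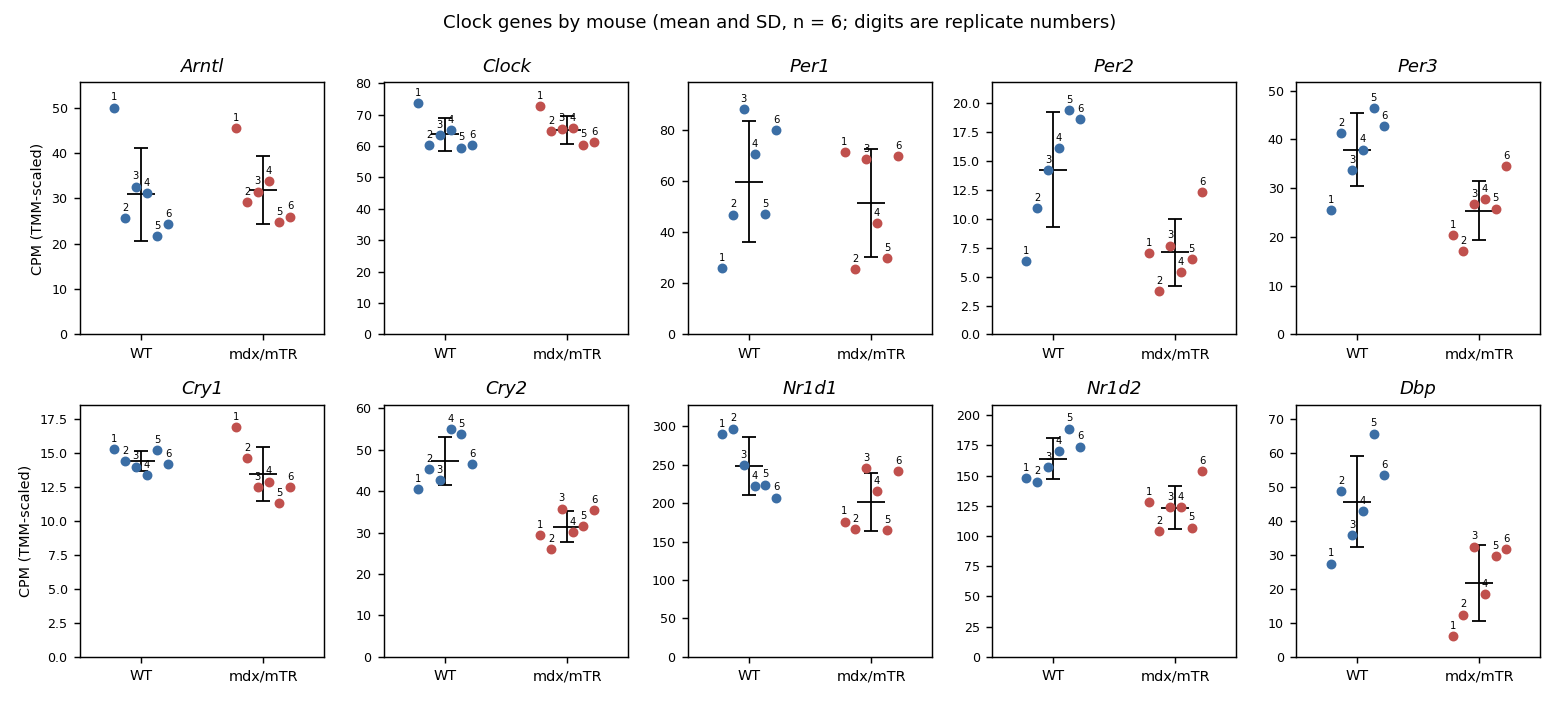
Level of each clock gene (vertical axis, CPM, TMM-scaled) in 6 WT and 6 mdx/mTR mice. Points are mice with their replicate numbers, and the bars give the mean and SD. For Cry2 all 6 mdx/mTR mice (at most 35.8 CPM) lie below all 6 WT mice (40.5 to 54.9 CPM), while the groups overlap for Arntl and Clock.

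Arntl and Clock, whose proteins form the activator, were alike in both groups. Arntl (chr7:113207465-113314126) ran from 21.7 CPM over a median of 28.4 CPM to 50 CPM in WT, and from 24.7 over 30.4 to 45.5 CPM in mdx/mTR. In each group the highest mouse was replicate 1, and the remaining WT mice were at 21.7 to 32.6 CPM. The log2 fold change was 0.04 ± 0.19 (SE, adjusted p 0.875), and its sign turned when any of 4 mice was left out. Clock (chr5:76209868-76304792) varied little, from 59.5 over 62.0 to 73.6 CPM in WT and from 60.5 over 65.2 to 72.7 CPM in mdx/mTR (a log2 difference of 0.03 ± 0.06 SE, adjusted p 0.701). Here too replicate 1 was the highest mouse of each group. With library totals in place of TMM, the median of all genes shifted by 0.16 and Clock was called higher (0.19, adjusted p 0.0108), which is 0.02 above the median of all genes under that scaling.

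The 3 period genes encode the proteins that, with the cryptochromes, inhibit the activator. Per2 (chr1:91415982-91459324) ran from 6.33 over 15.2 to 19.4 CPM in WT and from 3.77 over 6.77 to 12.3 CPM in mdx/mTR. Its log2 fold change was -1.01 ± 0.28 (SE, adjusted p 0.00954), a mean 50.2% lower, and 4 of 6 WT mice were above every mdx/mTR mouse. The groups overlapped through WT replicates 1 and 2, the lowest WT mice, and mdx/mTR replicate 6, the highest of its group. Per3 (chr4:151003652-151044665) ran from 25.5 over 39.6 to 46.4 CPM in WT and from 17.1 over 26.3 to 34.5 CPM in mdx/mTR (a log2 difference of -0.58 ± 0.16 SE, adjusted p 0.00995). As for Per2, WT replicate 1 and mdx/mTR replicate 6 were the lowest and the highest mouse of their groups, and 4 of 6 WT mice were above every mdx/mTR mouse. Per1 (chr11:69095217-69109960), which also responds to glucocorticoids, ran from 25.8 over 58.7 to 88.1 CPM in WT and from 25.5 over 56.0 to 71.4 CPM in mdx/mTR. Its groups covered nearly the same range, and the log2 fold change was -0.22 ± 0.31 (SE, adjusted p 0.592). It moved with single mice, from -0.371 without WT replicate 1 to -0.0721 without WT replicate 3 and -0.0752 without mdx/mTR replicate 2, and passed in none of these fits.

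The cryptochromes are the partners of the PER proteins, and of the pair Cry2 passed the test and Cry1 did not. Cry2 (chr2:92403646-92434043) ran from 40.5 over 45.9 to 54.9 CPM in WT and from 26 over 30.9 to 35.8 CPM in mdx/mTR. No mdx/mTR mouse reached the lowest WT mouse, and Cry2 was the only clock gene of the 10 without overlap. Over all genes tested 25.2% had no overlap in either direction, and 12.6% were lower without overlap. The log2 fold change was -0.59 ± 0.09 (SE, adjusted p 1.7e-04), a mean 33.6% lower. Cry1 (chr10:85131700-85185064) ran from 13.4 over 14.3 to 15.3 CPM in WT and from 11.3 over 12.7 to 16.9 CPM in mdx/mTR. For Cry1, 4 mdx/mTR mice were below all WT mice and 1 was above them, and the log2 fold change was -0.10 ± 0.09 (SE, adjusted p 0.366). With library totals the sign of Cry1 was positive (0.0518), and without mdx/mTR replicate 1 it was at -0.175 (adjusted p 0.052). Whether Cry1 and Cry2 differ in their change was not tested.

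Nr1d1 and Nr1d2 encode the REV-ERB receptors, which repress Arntl and are abundant in muscle. Nr1d2 (chr14:18204054-18239127) ran from 145 over 164 to 189 CPM in WT and from 104 over 124 to 154 CPM in mdx/mTR. Only mdx/mTR replicate 6 lay within the range of WT, and the log2 fold change was -0.41 ± 0.09 (SE, adjusted p 0.00261). With library totals it was -0.26 (adjusted p 0.0147), or -0.43 relative to the median of all genes under that scaling. Of the 50-base stretches of Nr1d2, 6.0% also occur in AC170187.1, so its level is uncertain to that extent. Nr1d1 (chr11:98767932-98775333) ran from 207 over 236 to 297 CPM in WT and from 165 over 196 to 246 CPM in mdx/mTR. Its log2 fold change of -0.30 ± 0.12 (SE) did not pass in edgeR (adjusted p 0.0601). It passed with DESeq2 (adjusted p 0.0384), in the authors' deposited table (-0.30, adjusted p 0.0375), and when WT replicate 6 (0.0402), mdx/mTR replicate 3 (0.0286) or mdx/mTR replicate 6 (0.0329) was left out of edgeR. It did not pass when any of the other 9 mice was left out, with adjusted p up to 0.128. The fold change was -0.148 with library totals (adjusted p 0.295) and -0.160 in limma-voom with sample weights (adjusted p 0.242). Exons of Nr1d1 overlap Thra on the opposite strand over 263 bases (9.7% of exon bases), and the strand setting of the counting is not given in the sources used here. Thra was at 71.2 to 80.2 CPM in WT and 68.3 to 79.6 CPM in mdx/mTR.

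Dbp (chr7:45705088-45710203), the output factor of the loop, had the lowest log2 fold change of the 10. It ran from 27.4 over 45.8 to 65.6 CPM in WT and from 6.05 over 24.0 to 32.4 CPM in mdx/mTR. All WT mice but replicate 1 were above every mdx/mTR mouse, and mdx/mTR replicate 1 was the lowest of all 12. The log2 fold change was -1.07 ± 0.34 (SE, adjusted p 0.018), a mean 52.3% lower. A fall of at least 1 on the log2 scale with an adjusted p below 0.05 was found in 1.94% of all genes, and in Dbp and Per2 of the 10 clock genes. Both lay close to that bound, and the authors' deposited table gives -0.85 for each. With library totals Dbp was at -0.91 and Per2 at -0.86, or -1.08 and -1.03 relative to the median of all genes under that scaling. Sphk2 overlaps 29.3% of the exon bases of Dbp on the opposite strand, and stood at 18.2 to 24.9 CPM in WT and at most 21.2 CPM in mdx/mTR (adjusted p 0.159).

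Since replicate 1 of each group had the highest Arntl and the lowest Dbp, the fit was repeated without both. The same 5 clock genes passed, with Dbp at -0.99 (adjusted p 0.00662) and Per2 at -1.15 (adjusted p 0.00445). With the Arntl level of each mouse as a covariate, the same 5 passed as well, with Dbp at -1.03 ± 0.24 (SE, adjusted p 0.00297), Per3 at -0.52 ± 0.12 (adjusted p 0.00345) and Cry2 at -0.57 ± 0.08 (adjusted p 1.36e-04). Both fits were added after the values had been seen.

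The authors' deposited table lists 6 of the 10 clock genes with an adjusted p below 0.05, the 5 above and Nr1d1. The authors' deposited table gives smaller falls for Dbp (-0.85) and Per2 (-0.85) than edgeR, and nearly the same values for Cry2 (-0.59), Per3 (-0.56) and Nr1d2 (-0.41).

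**Figure D2:**
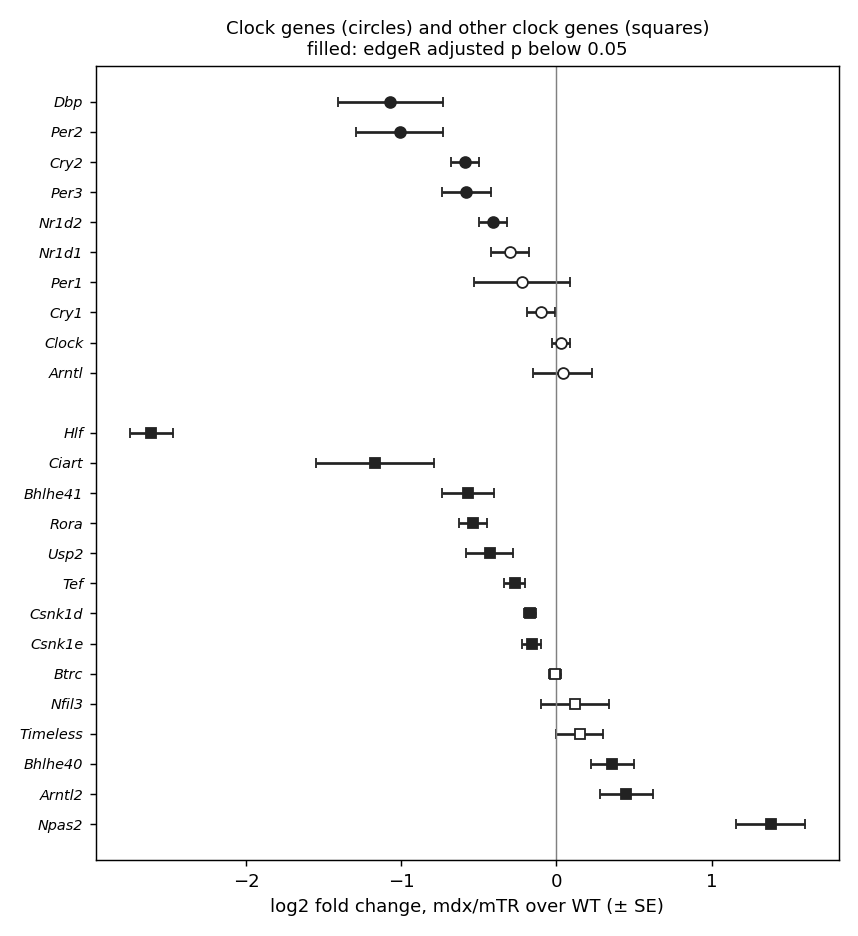
Log2 fold change, mdx/mTR relative to WT (horizontal axis), with its SE for the 10 clock genes (circles) and the other clock genes given by name (squares), filled where the edgeR adjusted p is below 0.05. The filled circles all lie left of 0, while filled squares lie on both sides, from Hlf at -2.61 to Npas2 at 1.38.

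Levels of different genes can be compared per length. Divided by the kilobases of the longest coding transcript in GENCODE M21, Nr1d1 was highest in WT at 91.1 ± 13.8 CPM per kilobase (SD, n = 6), followed by Nr1d2 at 35.2 ± 3.58 and Dbp at 24.8 ± 7.35. Per1 (12.8 ± 5.07), Cry2 (11.9 ± 1.48) and Arntl (10.4 ± 3.46) came next on this scale and did not differ beyond their spread. Clock (6.54 ± 0.545) and Per3 (6.32 ± 1.25) were likewise within their spread, then came Cry1 (4.76 ± 0.234) and Per2 (2.45 ± 0.85). In mdx/mTR the per-kilobase level of Dbp (11.9 ± 6.04) was near that of Per1 (11 ± 4.52) and Arntl (10.7 ± 2.52), whereas Nr1d1 (74.2 ± 13.8) and Nr1d2 (26.4 ± 3.86) were still the highest.

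The spread between mice of a group differed widely among the clock genes. In WT the SD of log2(CPM + 0.5) was 0.652 for Per1, 0.581 for Per2, 0.44 for Dbp and 0.424 for Arntl. Between 98.0% and 99.6% of all tested genes had a smaller SD than these 4. Cry1 was at 0.0685 and Clock at 0.115, below the median of all genes (0.129). In mdx/mTR the SD of Dbp was 0.928, larger than that of 99.7% of genes, and Cry1 was at 0.198 against a median of 0.154. The difference in spread between the groups was not tested.

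**Figure D3:**
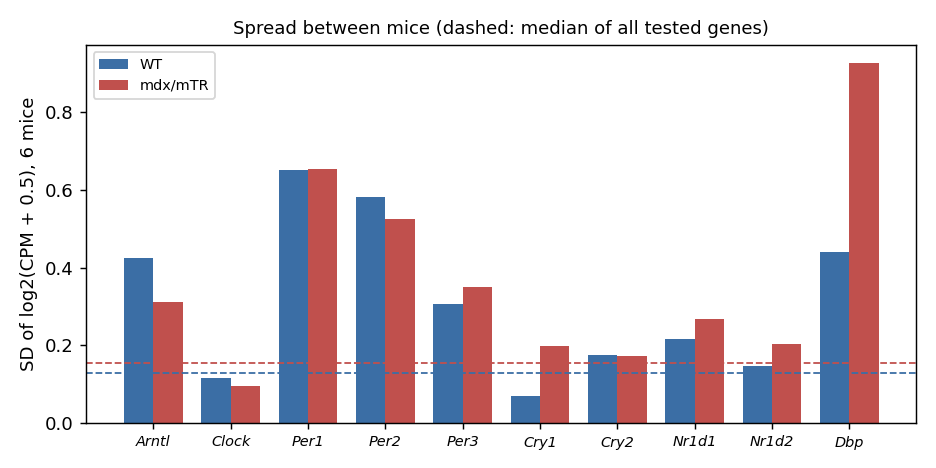
SD of log2(CPM + 0.5) over the 6 mice of each group (vertical axis) for the 10 clock genes, with dashed lines at the median over all tested genes (0.129 in WT, 0.154 in mdx/mTR). Per1, Per2, Dbp and Arntl stand well above the WT median, and Clock lies below both medians.

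Arntl peaks at roughly the opposite time of day from Dbp and Per3, so their relation was examined across mice within each group (log2(CPM + 0.5), exact permutation of pairings, two-sided, 18 relations with Benjamini-Hochberg adjustment). Across the 6 WT mice Per3 fell as Arntl rose, with a Pearson r of -0.991 (exact permutation p 0.00139, adjusted p 0.00833) and, by rank, rho -1.0 in Spearman form (exact permutation p 0.00278, adjusted p 0.0167). Dbp behaved alike, with r -0.973 (exact permutation p 0.00139, adjusted p 0.00833) and rho -1.0 (exact permutation p 0.00278, adjusted p 0.0167). Clock rose with Arntl in WT (r 0.981, exact permutation p 0.00556, adjusted p 0.025; rho 0.886, exact permutation p 0.0333, adjusted p 0.15). Without WT replicates 1 and 5, the mice farthest from the median of Arntl, r was -0.941 for Per3, -0.945 for Dbp and 0.92 for Clock. The smallest p that 6 pairings allow for r is 0.00139. Per2 in WT (r -0.84, exact permutation p 0.0403, adjusted p 0.118; rho -0.829, exact permutation p 0.0583, adjusted p 0.175) did not pass the adjustment and rested on those mice, since r was -0.0216 without them.

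Across the 6 mdx/mTR mice Clock again rose with Arntl (r 0.988, exact permutation p 0.00139, adjusted p 0.00833; rho 1.0, exact permutation p 0.00278, adjusted p 0.0167), and r was 0.924 without mdx/mTR replicates 1 and 5. With library totals in place of TMM it was 0.684 (adjusted p 0.289). Dbp had an r of -0.812 (exact permutation p 0.0431, adjusted p 0.118) and a rho of -0.486 (exact permutation p 0.356, adjusted p 0.64), and r was -0.242 without those mice. For Per3 r was -0.397 (exact permutation p 0.446, adjusted p 0.617) and rho -0.143 (exact permutation p 0.803, adjusted p 0.903), and with library totals r was -0.634 (adjusted p 0.289). In WT the 6 mice ordered by Arntl were in exactly the reverse order by Per3 and by Dbp, while in mdx/mTR replicate 2 was low in Per3 (17.1 CPM) and Dbp (12.4 CPM) at a middle level of Arntl (29.2 CPM). Whether the relations differ between the groups was not tested. The remaining relations, with Per1, Cry1, Cry2, Nr1d1 and Nr1d2 in both groups and with Per2 in mdx/mTR, had adjusted p of r from 0.118 to 0.885. Among these, Nr1d1 did not fall with Arntl in WT, where r was 0.529 (exact permutation p 0.296, adjusted p 0.532) and rho 0.429. In mdx/mTR the r of Nr1d1 was -0.0892 (exact permutation p 0.885, adjusted p 0.885) and rho 0.314.

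**Figure D4:**
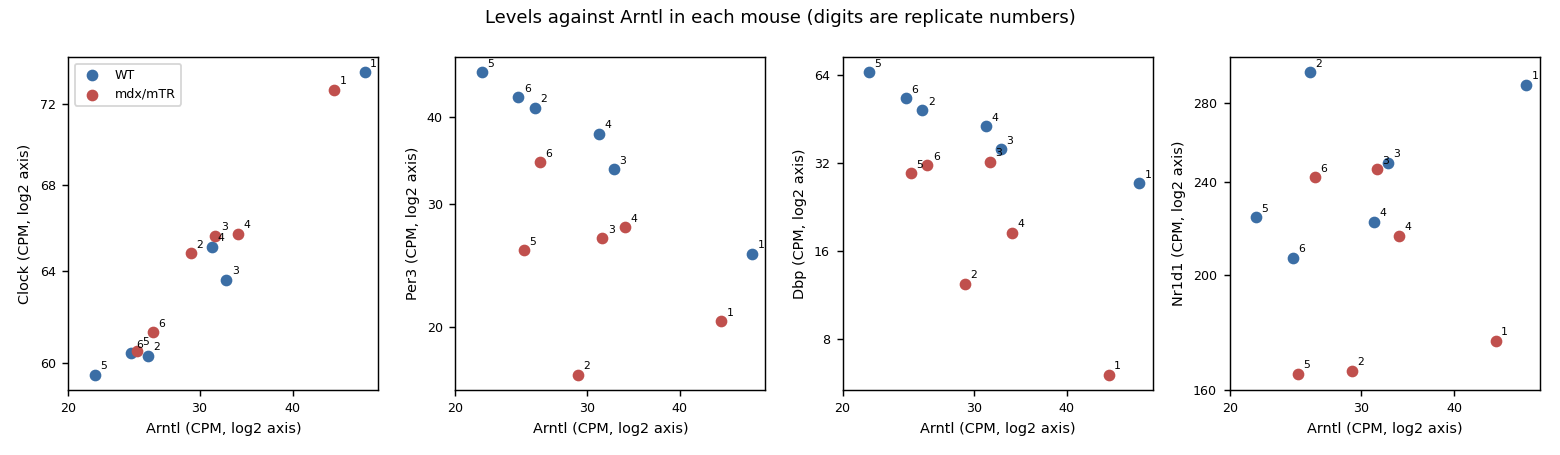
Clock, Per3, Dbp and Nr1d1 (vertical axes, CPM) against Arntl (horizontal axes, CPM) in each mouse, all on log2 axes that do not start at 0, with replicate numbers. Clock rises with Arntl along a common line in both groups, whereas Per3 and Dbp fall with Arntl in WT and their mdx/mTR mice lie below the WT mice at like Arntl levels. Nr1d1 does not fall with Arntl in WT (Pearson r 0.529).

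The ratio of an output gene to Arntl within a mouse does not depend on the scaling of libraries. The log2 ratio of Dbp to Arntl averaged 0.56 ± 0.87 (SD, n = 6) in WT, from -0.87 to 1.6, and -0.74 ± 1.23 in mdx/mTR, from -2.91 to 0.28. For Per3 to Arntl it averaged 0.33 ± 0.74 in WT and -0.33 ± 0.56 in mdx/mTR, and for Nr1d1 to Arntl 3.05 ± 0.37 and 2.68 ± 0.43. The difference of -1.3 for Dbp exceeded the SD of either group, while those of -0.65 for Per3 and -0.37 for Nr1d1 were about as large as the SDs. They are given without a test. Leaving out each mouse in turn gave -1.59 to -0.867 for Dbp to Arntl, -0.915 to -0.490 for Per3 to Arntl and -0.481 to -0.228 for Nr1d1 to Arntl, the last bound without mdx/mTR replicate 1.

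Genes whose level moved most like Arntl were ranked by the Pearson r of deviations from the group means over the 12 mice, among genes with a mean of at least 5 CPM. Among the highest were Clock (0.982), Slc16a9 (0.914), Hint1 (0.899) and Slc25a36 (0.874). The lowest were Bmp5 (-0.901), Stk35 (-0.888), Snx33 (-0.868), D10Wsu102e (-0.855) and Coq10b (-0.845), the last a listed clock-linked output gene in muscle. For Dbp the highest were Itga3 (0.891), Scn7a (0.877), Zcchc14 (0.869), Serpina3n (0.866) and Zfp9 (0.862), and the lowest were Atad2b (-0.86), Hddc2 (-0.835), Cep44 (-0.826), Cry1 (-0.812) and Fbxo28 (-0.81). On this measure Dbp had an r of 0.775 with Per3 and -0.77 with Arntl. The r values leave out the difference between the groups, share libraries and scaling and describe these 12 mice only. Of the 5 highest for Dbp, Scn7a (log2 fold change 0.73, edgeR adjusted p 1.2e-04) and Serpina3n (3.79, adjusted p 1.8e-05) were higher in mdx/mTR. Zcchc14 was lower (-0.19, adjusted p 0.0029), as was Dbp, while Itga3 and Zfp9 did not pass. Serpina3n met the 5 CPM limit through its mdx/mTR mean of 30.4 CPM, since its WT mean was 2.2 CPM.

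The rest of the clock was examined through a list of 18 other clock genes, of which 16 were tested. In edgeR 9 were lower, 3 were higher and 4 did not pass, with a median log2 fold change of -0.17, beside 23.4% lower and 25.0% higher over all genes tested. The count of 12 that passed was 8 without WT replicate 3 or WT replicate 5, 9 under the replicate block, 10 with library totals and 11 without replicate 1 of both groups. Hlf, which encodes a partner of DBP at D-boxes, ran from 17.6 over 19.1 to 23.4 CPM in WT but only from 2.21 over 3.24 to 4.35 CPM in mdx/mTR. The groups were far apart, and the log2 fold change was -2.61 ± 0.14 (SE, adjusted p 3.1e-08), a mean 83.6% lower. Tef, the remaining PAR bZIP gene, fell less, from 399.6 ± 28.8 to 330.3 ± 36.3 CPM (SD, n = 6 each; log2 fold change -0.27, adjusted p 0.0076). Dbp, Hlf and Tef, the 3 PAR bZIP genes, were thus all lower.

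Rora encodes a receptor that activates Arntl at the sites where REV-ERB receptors repress it. It fell from 176 ± 21.7 to 121 ± 14.2 CPM (-0.54 ± 0.09 SE, adjusted p 4.0e-04), with overlap only through WT replicate 2. Rorb was not tested, with 1 to 15 counts per library, and Fbxl21, a ubiquitin ligase subunit, had 3 to 14 counts.

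Npas2, which can replace CLOCK as the partner of ARNTL, rose from 1.12 to 3.16 CPM in WT to 4.24 to 6.51 CPM in mdx/mTR, without overlap (log2 fold change 1.38 ± 0.22 SE, adjusted p 1.9e-04). Arntl2, the paralog of Arntl, was also higher (0.45, adjusted p 0.0412), a call lost when any of 7 mice was left out. The bHLH repressors moved apart: Bhlhe40 was higher (0.36, adjusted p 0.0389, likewise lost when any of 7 mice was left out) and Bhlhe41 lower (-0.57, adjusted p 0.0114). Ciart, shown above with 3 E-boxes, fell from 3.24 ± 1.45 to 1.45 ± 0.776 CPM (-1.17 ± 0.38 SE, adjusted p 0.0201). Usp2, a deubiquitinase of the clock (-0.43, adjusted p 0.0274), and the PER kinases Csnk1d (-0.17, adjusted p 0.0035) and Csnk1e (-0.16, adjusted p 0.0474) were lower. The call of Csnk1e was lost in 17 of 23 alternatives and that of Usp2 in 5, and with library totals Csnk1e, Csnk1d, Usp2 and Tef did not pass. Ciart did not pass without WT replicate 5. Nfil3, Btrc and Timeless were among those that did not pass (log2 fold changes from -0.01 to 0.15).

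**Figure D5:**
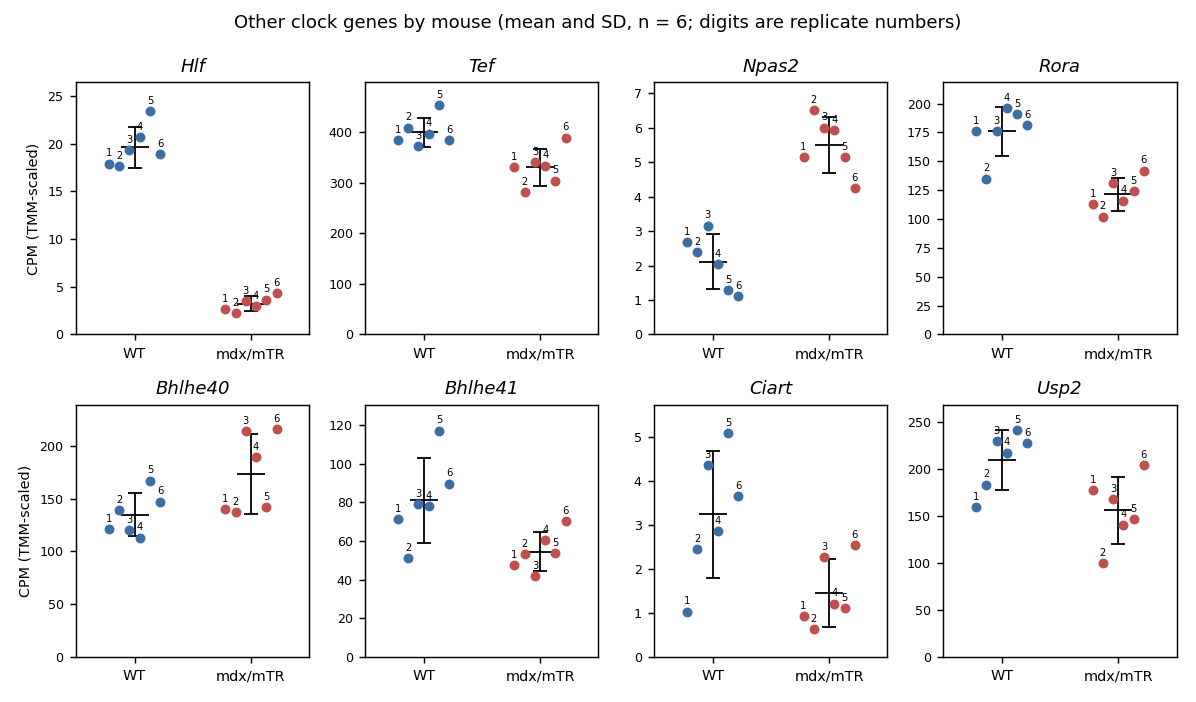
Level (vertical axis, CPM, TMM-scaled) of 8 other clock genes in each mouse, with the mean and SD of 6 mice and replicate numbers. Hlf and Npas2 do not overlap between the groups, with Hlf at 17.6 to 23.4 CPM in WT and 2.21 to 4.35 CPM in mdx/mTR.

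Lists of genes that can move with the clock were counted beside it. Of 10 clock-linked output genes in muscle, 4 were lower (Nampt, Tcap, Ucp3 and Lpin1), 1 was higher (Myod1) and 5 did not pass, with a median of -0.27. The share of this list that passed was near the 48.3% of all genes. Nampt, the rate-limiting enzyme of NAD salvage, fell from 229 ± 27.8 to 168 ± 17.2 CPM without overlap, although WT replicate 2 and mdx/mTR replicate 2 were both at 190.2 CPM (-0.45, adjusted p 9.3e-04), and Myod1 rose from 19.5 ± 4.66 to 37.0 ± 5.57 CPM (0.93, adjusted p 1.8e-04). None of the 7 glucocorticoid-induced genes passed in edgeR, 0 had an unadjusted p below 0.05, and DESeq2 called 0. Their median was 0.01. Fkbp5 was at 55.0 to 91.7 CPM in WT and 58.0 to 120.3 CPM in mdx/mTR. Of 8 immediate early genes, Junb (1.09) and Atf3 (1.02) were higher, and 4 passed without WT replicate 2. Of 7 temperature-responsive genes, Hsph1 (-0.77) and Hspa8 (-0.47) were lower, Rbm3 (0.39) and Hspa1b (1.39) were higher, and Cirbp (0.03) did not pass. Without mdx/mTR replicate 1 (8.43 CPM) the rise of Hspa1b was 0.51 (adjusted p 0.153), and without replicate 1 of both groups 0.71 (adjusted p 0.0423). Its call was lost in 8 of 23 alternatives, among them leaving out any of 6 mice. Hspa1b is nearly identical to Hspa1a, so its counts are uncertain.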

How the data were processed

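The authors deposited whole-number counts per gene symbol with 1 column per mouse. FastQC, STAR, DESeq2 and build mm10 are named per the submitters' processing notes, and the counter, annotation and strand setting are not given in the sources used here. The authors' own comparison was deposited as well. Per the file headers it gives each gene a base signal, a log2 fold change and error, a score for the test, and raw and adjusted p-values.

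Counts were tested with edgeR 4.0.16 in R 4.3.3 (filterByExpr, TMM scaling, quasi-likelihood test with group as the only term, Benjamini-Hochberg adjustment over 13937 genes, threshold 0.05). The standard error is the absolute log2 fold change divided by the square root of F. Correlations used exact permutation in Python 3.11.15 with a pseudocount of 0.5 CPM. A count of 3 corresponded to 0.046 to 0.0837 CPM, and such limits cover counting error only. Replicates differed by more than sampling noise (chi-square per degree of freedom 8.87 to 116). The labels number the samples without saying how replicates were taken, and each sample was treated as 1 mouse. The p-values of the group comparison weigh the difference against the spread between these samples, which may be partly technical.

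The edgeR, DESeq2 and limma-voom fits with group as the only term were tested on simulated data. There DESeq2 made more false calls than edgeR or limma-voom. Alternatives were other scalings, filters and thresholds, DESeq2 1.42.0, limma-voom 3.58.1, a replicate block and leaving out each mouse. 0 per-sample columns were left unmatched.

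Named were all 10 clock genes, called genes of the other lists, and the 5 highest and lowest in likeness to Arntl and Dbp. Members and lists were chosen with earlier results of these data known. Thra and Sphk2 were named for their overlap. Lengths and overlaps came from GENCODE M21, promoters from RefSeq. A few genes that these rules select are not reported here.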

Additional observations from a re-analysis of the deposited data

Results flagged for a closer look

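A mouse stood apart where its distance from the nearest of the other 5, as a share of the whole range of the 6, passed Dixon's critical value. This held 7 times in 122 sets of 6 values, and about 6.1 are expected by chance alone. None of the 7 was a value of the 10 clock genes. Rora was lowest in WT replicate 2, at 135 CPM, while the rest of WT lay between 176 and 196 CPM. Coq10b was lowest in WT replicate 1, at 9.67 CPM against 17.0 to 19.4 CPM. Hk2 was highest in mdx/mTR replicate 2, at 755 CPM, with the rest at 318 to 438 CPM. Nr4a3 was highest in WT replicate 3 (30.1 CPM, with the rest from 3.52 CPM to 11 CPM) and in mdx/mTR replicate 2 (67.3 CPM against 4.67 to 16.2 CPM). Hspa1a reached 8.17 CPM in mdx/mTR replicate 1, where the rest had at most 2.85 CPM, and Hspa1b reached 8.43 CPM there, where the rest had at most 1.92 CPM. That mouse also had the highest Arntl and the lowest Dbp of its group.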

How the results depend on the processing

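The count of clock genes called was 4 to 6 under the 24 alternatives, against 5, and the same 5 genes were among those called under every alternative except an adjusted p of 0.01, where Dbp was lost. Leaving out each mouse gave 5 to 6 clock genes. The log2 fold change stayed within -1.28 to -0.877 for Dbp, -1.24 to -0.862 for Per2 and -0.634 to -0.438 for Cry2. Arntl changed sign without WT replicate 2 (-0.00885), WT replicate 5 (-0.0442), WT replicate 6 (-0.0210) or mdx/mTR replicate 1 (-0.0904), and Clock without mdx/mTR replicate 1 (-0.00407). Without each mouse in turn Arntl reached at most 0.230 and Clock at most 0.0745. With library totals alone 1 clock gene, Clock, was called higher, Cry1 was at 0.0518, and 5590 genes in all were higher and 1560 lower. Under that scaling r of Arntl was -0.0624 with Cry1 in WT, 0.684 with Clock in mdx/mTR and -0.396 with Nr1d2 in mdx/mTR (0.153 and 0.111 with TMM for the first and last). At an adjusted p of 0.01, 6 other clock genes and 2 temperature-responsive genes were called. Without WT replicate 2, 4 immediate early genes were called, and the fits without each mouse gave 2 to 4. Same-numbered mice had correlations of deviations above 0.1 in 2 of 6 pairs, so no pairing was taken from the numbers. Under a replicate block 5 clock genes, 4 immediate early genes and 6420 genes in all were called, 6197 of them shared with the 6736. The cause of these shifts was not tested. Ciart had 37 to 195 counts per library, and its biological coefficient of variation was 44.5%.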

Other observations

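Mice with the same replicate number had nearly the same Arntl level in both groups, which was noticed after the values were seen. In replicates 1 to 6 Arntl was at 50, 25.6, 32.6, 31.2, 21.7 and 24.3 CPM in WT and at 45.5, 29.2, 31.5, 33.8, 24.7 and 26 CPM in mdx/mTR. Across the 6 numbers Pearson r was 0.983 (exact permutation p 0.00278, adjusted p 0.0208 over the 10 clock genes) and Spearman rho 0.943 (exact permutation p 0.0167, adjusted p 0.0833). Without replicates 1 and 5 r was 0.89. For Clock r was 0.942 (exact permutation p 0.00417, adjusted p 0.0208) and rho 0.943 (exact permutation p 0.0167, adjusted p 0.0833), and r was 0.734 without replicates 1 and 4. The other 8 clock genes had r from -0.546 for Nr1d1 to 0.642 for Dbp, with adjusted p from 0.606 to 0.944. Over all tested genes the median r was 0.0429, and 0.782% of genes had an r above 0.9. The labels do not say what the numbers mark, and whether they follow the order or the time of collection was not tested.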
